A study of Mus musculus with 6 samples.

Results

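RNA from repeat families was compared between 2 pooled libraries of whole mouse testis at 20dpp (days post partum), 1 from Dnmt3L knockout animals and 1 from wild-type controls described as littermates. Members of the comparison are the repeat families whose counts in the 2 libraries sum to 50 or more, and 742 of the 787 families listed in the series qualified. Each library held testes of 3 mice, total RNA was extracted with TRIZOL, and a TruSeq Stranded mRNA kit was used. The series also holds 1 pooled knockout library and 1 pooled control library at each of 10dpp and 16.5dpc (days post coitum), whose controls were heterozygous for Dnmt3L and which are used here for comparison of levels. The strain background is C57BL/6 in all 6 libraries, and those at 16.5dpc and 10dpp are pools of several mice too. The labels name no Cre driver, and how the null allele was made is not given in the sources used here.

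Dnmt3L has no methyltransferase activity itself but assists the enzymes that set new DNA methylation, and germ cells of the fetal testis need it to methylate retrotransposons. Males that lack it are sterile, and their spermatocytes fail in meiosis. LINE-1 elements are autonomous retrotransposons without long terminal repeats (LTRs). Endogenous retroviruses (ERVs) consist of an internal sequence with the viral genes between LTRs that hold the promoter, and their LTRs also occur alone in the genome. SINEs are short elements copied by the LINE-1 machinery, and MIR, LINE-2 and DNA transposons are mostly old, immobile relics. A testis at 20dpp normally contains many pachytene spermatocytes. The files hold no gene rows, so neither the Dnmt3L transcript nor any marker of testis cells could be checked.

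The counts listed for repeats summed to 8639952 in the 20dpp control library and 11239673 in the 20dpp knockout library, and to between 1548394 and 2275706 in the 4 earlier libraries. Levels are in CPM, counts divided by the library's listed repeat counts after TMM scaling and brought to a common total. They are not divided by element length, so a level compares libraries for 1 family and not families with each other. With 1 library a side there is no replicate error and no test. The 95% interval beside a ratio is exact and covers counting error only, and reads shared between related families are not independent. In whole testis, fewer cells of a type and less RNA per cell cannot be told apart.

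The families with the most counts among those well above the control in the knockout library were the young LINE-1 subfamilies L1Md_T, L1Md_Gf and L1Md_A, the intracisternal A-particle entries IAPEz-int and IAPLTR1_Mm, and the ERV entries MMERVK10C-int, RLTR10C and MMVL30-int. Families far below the control were more numerous and mostly had fewer counts, led by IAPLTR3, LTR68 and MER52-int. By 2-fold or more, 15 of 742 families were higher (2.02%) and 44 were lower (5.93%). These counts were 9 and 56 when scaled on total counts, and 10 and 55 with the ancient repeats centred on 0, since both scalings lower every ratio. The ancient repeats of this scaling are the 159 compared families of the LINE-2 and CR1, MIR and DNA transposon lists, without ancient LINE-1. On total counts MMVL30-int (log2 ratio 0.83), MLT1E3, MER47A, MLT1F2-int, Charlie10a and MER91C fell short of 2-fold, with ancient repeats centred the same families except MER47A did, and MMVL30-int also did with TMM on the 20dpp libraries alone (0.9992). The other 683 families lay within 2-fold. Counting intervals lay above a log2 ratio of 0 for 303 families (40.8%) and below it for 262 (35.3%), so at this depth an interval that excludes 0 was common and says little about size. The median log2 ratio was 0.02, the quartiles were -0.26 and 0.25, and the range ran from -4.21 to 2.10. By the same rules, at 10dpp 1.03% of 678 families were higher and 0.0% lower by 2-fold or more, with intervals above 0 in 18.1% and below 0 in 15%. At 16.5dpc these values were 2.65%, 0.295%, 30.5% and 27.4% of 678 families. The libraries of both ages were shallower.

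**Figure D1:**
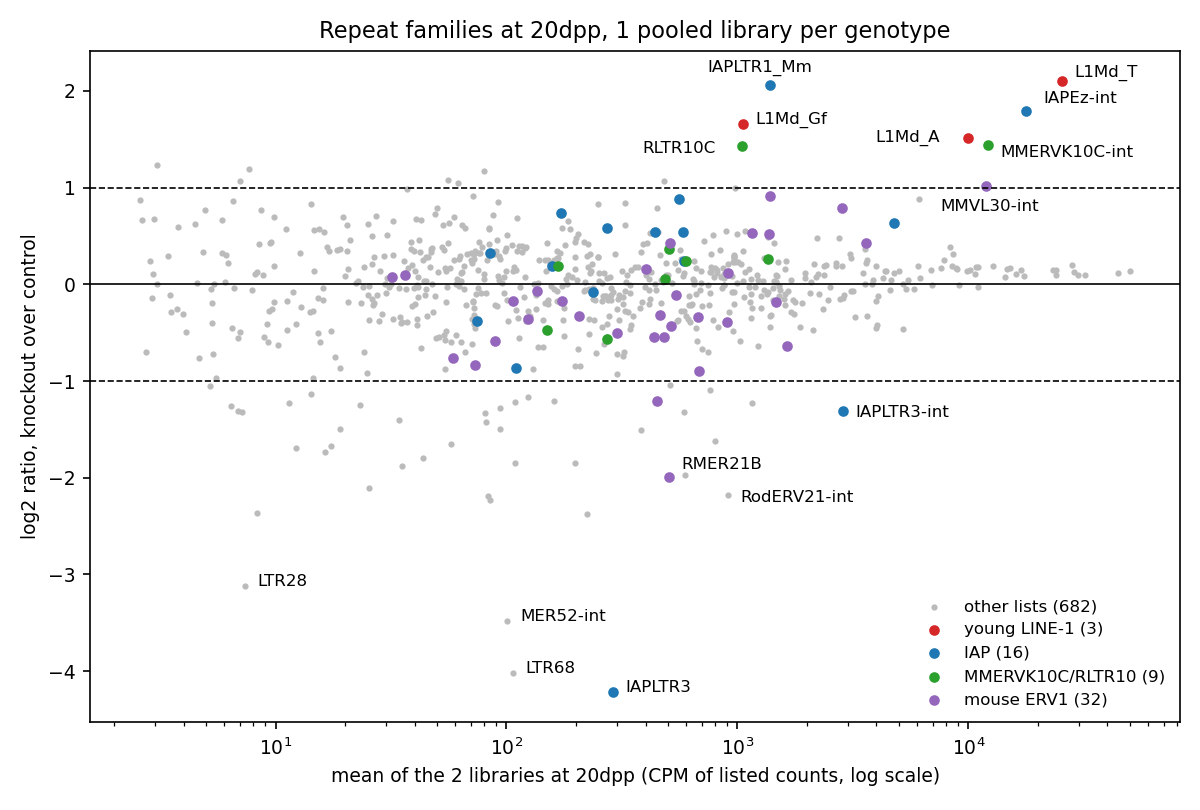
Log2 ratio of knockout over control at 20dpp (vertical axis) against the mean level of the 2 libraries in CPM (horizontal log axis) for 742 families; coloured points are 4 lists, grey points all others, and dashed lines mark 2-fold. The high outliers L1Md_T and IAPEz-int sit at the high-count end, whereas IAPLTR3, LTR68, MER52-int and LTR28 lie at log2 ratios of -4.21, -4.02, -3.48 and -3.12 among families with lower levels.

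The 15 higher families held 4.01% of the listed counts in the control library (exact binomial interval 3.99 to 4.02) and 11.1% in the knockout library (11.10 to 11.13). For the 44 lower families these shares were 1.80% (1.79 to 1.80) and 0.545% (0.541 to 0.549). Both groups were chosen by their ratio, so the shares describe only how much RNA they account for. Of the 15, 8 had over 10000 counts and 3 under 1000, with a median of 20520 counts. Of the 44, 7 had over 10000 counts and 17 under 1000, with a median of 1631. Of the 683 families within 2-fold, 233 had over 10000 counts and 170 under 1000, with a median of 4134. Precision followed the counts: the median width of the interval on the log2 scale was 1.17 for the 62 families with 50 to 200 counts and 0.07 for the 248 with at least 10000. Of those 62 sparse families 3 were higher (4.84%) and 6 lower (9.68%) by 2-fold or more. Of the 128 with 200 to 1000 counts 0 were higher and 11 lower (8.59%). For the 304 with 1000 to 10000 counts these were 4 (1.32%) and 20 (6.58%), and for the 248 with at least 10000 they were 8 (3.23%) and 7 (2.82%). The shares over all families were 2.02% higher and 5.93% lower. At the edge of the minimum, Helitron1Nb_Mam with 50 counts had a log2 ratio of 0.87 and LTR85b with 51 counts one of -0.70, while MER66-int with 49 counts (0.83) and MamRep488 with 48 (-0.92) fell outside. In all, 44 families had fewer than 50 counts and 1 of the series was not listed at 20dpp.

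Young LINE-1 RNA was far more abundant in the 20dpp knockout library than in any other library. L1Md_T, a subfamily with active copies, measured 12335 CPM (control) and 14361 CPM (knockout) at 16.5dpc, 9632 and 10529 CPM at 10dpp, and 9611 and 41208 CPM at 20dpp. Its ratio at 20dpp was 4.29 (4.26 to 4.32). L1Md_A, defined by its own type of promoter monomer, measured 7283 and 8096 CPM at 16.5dpc, 5463 and 6376 at 10dpp, and 5144 and 14690 at 20dpp, a ratio of 2.86 (2.83 to 2.89). The 20dpp knockout library thus exceeded each of the other 5, which lay between 5144 and 8096 CPM. L1Md_Gf, another young subfamily, measured 504 and 605 CPM at 16.5dpc, 363 and 385 at 10dpp, and 508 and 1605 at 20dpp, a ratio of 3.16 (3.06 to 3.27). All 3 members of the young list exceeded 2-fold (2.02% of all families were higher by 2-fold or more), with a median log2 ratio of 1.66 against 0.02 over all families. Their summed counts gave a ratio of 3.77 (3.75 to 3.79) at 20dpp, and their median log2 ratios were 0.13 at 10dpp and 0.22 at 16.5dpc. The difference between the ages was not tested.

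Subfamilies of LINE-1 that are related to the young ones but older were close to the control or below it. The 3 L1Md_F entries, an older mouse type, had log2 ratios of 0.27 (L1Md_F, 0.24 to 0.31), 0.19 (L1Md_F2, 0.18 to 0.21) and 0.19 (L1Md_F3, 0.16 to 0.22). L1Md_F2 measured 17280 (control) and 17331 CPM (knockout) at 16.5dpc, 15578 and 15758 at 10dpp, and 11884 and 13604 at 20dpp, so its 20dpp knockout level was below all 4 earlier libraries. L1_Mm had the highest ratio of the 31 rodent LINE-1 entries outside the young list, with 1842 CPM (control) and 2572 CPM (knockout) at 20dpp (log2 ratio 0.48, 0.45 to 0.51). The 4 L1_Mus entries all had intervals below 0 (median -0.11), as did the 3 L1_Mur entries (median -0.45). Of the 16 Lx entries, from an early expansion in rodents, 12 had intervals below 0 and 1 above, with a median of -0.22. Lx2A1 was the only one of the 31 at least 2-fold lower, with 568 CPM (control) and 200 CPM (knockout), 2.84-fold higher in the control (2.70 to 3.0). Its 4 earlier libraries lay between 256 and 288 CPM. The list of 31 had a median of -0.12, 5 intervals above 0 and 21 below, against 40.8% above and 35.3% below over all families.

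Ancient LINE-1 entries, from before the split of rodents from other mammals, centred near 0 with a few families apart. The 76 compared had a median of 0.06, which turned to -0.12 when scaled on total counts. Their intervals lay above 0 in 37 and below 0 in 16, while over all families 40.8% lay above and 35.3% below. L1MEe was highest, with 656 CPM (control) and 1303 CPM (knockout) at 20dpp (log2 ratio 0.99, 0.95 to 1.04). It was already higher in the knockout library at 10dpp, with 624 and 1018 CPM (log2 ratio 0.71), and less so at 16.5dpc, with 642 and 715 CPM (0.16). L1M3a was lowest, 3.33-fold higher in the control (2.57 to 4.40) on 222 and 76 counts.

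**Figure D2:**
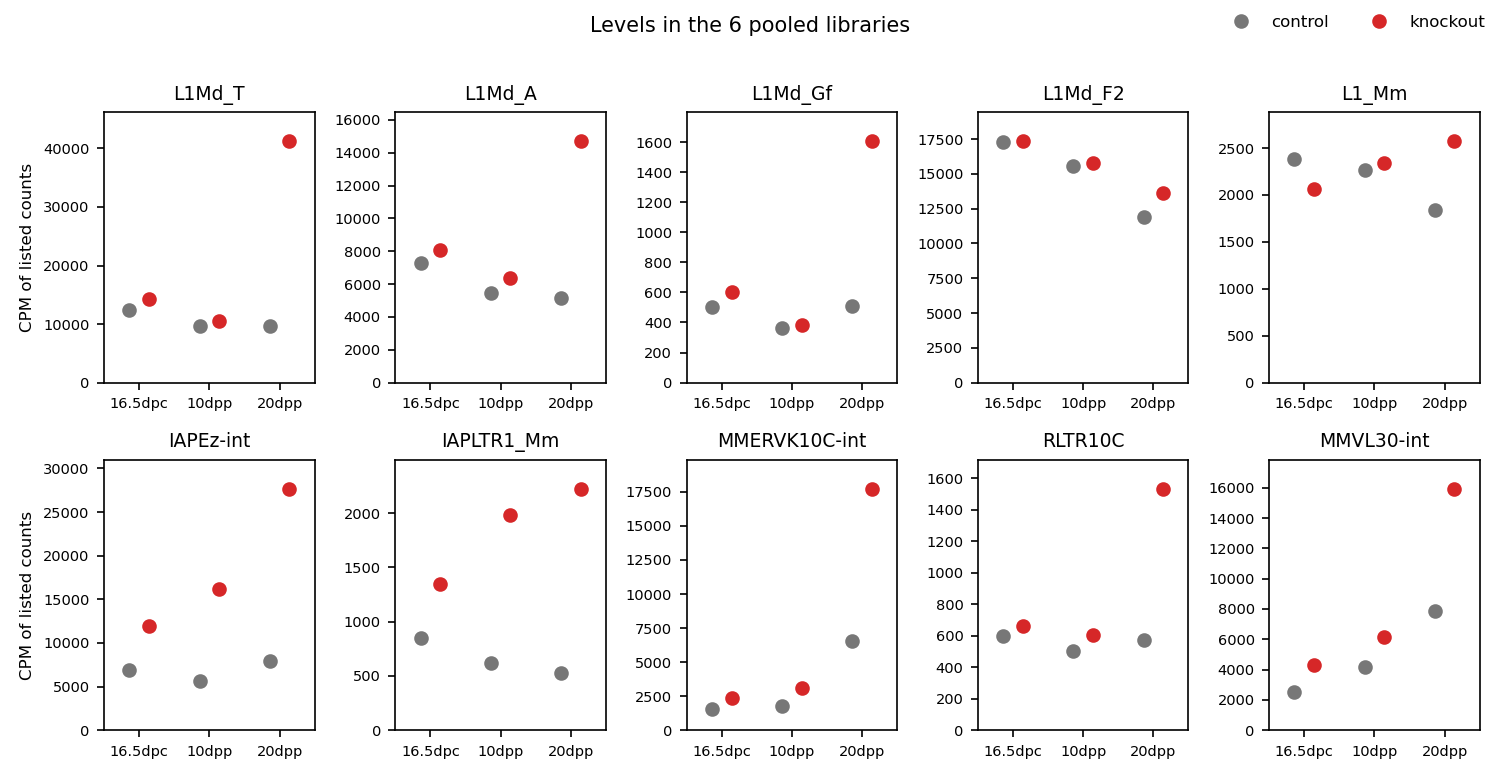
Level in CPM (vertical axis, from 0, own scale in each panel) of 10 families in the 6 pooled libraries by age; grey points are controls (heterozygous at 16.5dpc and 10dpp, wild type at 20dpp) and red points knockouts, 1 library each. For L1Md_T, L1Md_A, L1Md_Gf and RLTR10C the genotypes lie close at 16.5dpc and 10dpp and apart at 20dpp, whereas IAPEz-int and IAPLTR1_Mm are above the control at each age.

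Entries of the intracisternal A-particle (IAP), an ERVK retrotransposon that still inserts in laboratory mice, lay on both sides of the control at 20dpp, also within 1 element. IAPEz-int, the internal sequence of the most numerous type, measured 6929 CPM (control) and 11979 CPM (knockout) at 16.5dpc, 5666 and 16136 at 10dpp, and 7980 and 27649 at 20dpp (20dpp ratio 3.46, 3.44 to 3.49). Its LTR entry IAPLTR1_Mm measured 846 and 1348 CPM at 16.5dpc, 623 and 1987 at 10dpp, and 532 and 2225 at 20dpp (4.18, 4.06 to 4.32). In both entries every knockout library lay above every control library. The other IAPLTR1 and IAPLTR2 entries showed smaller ratios. IAPLTR1a_Mm had a log2 ratio of 0.54 (0.48 to 0.60), IAPLTR2_Mm of 0.24 (0.19 to 0.30), IAPLTR2b of 0.19 (0.08 to 0.29) and IAPLTR2a of -0.08 (-0.16 to 0.01). At 10dpp the same 4 had values of 0.52, 1.16, 0.44 and 1.03, and at 16.5dpc of 0.54, 0.47, 0.54 and 0.51. IAPLTR2_Mm measured 512 CPM (control) and 1145 CPM (knockout) at 10dpp, against 538 and 637 CPM at 20dpp.

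A second set of IAP entries stood below the control. IAPLTR3 measured 56.6 CPM (control) and 89.7 CPM (knockout) at 16.5dpc, 17.2 and 20.7 at 10dpp, and 549.9 and 29.6 at 20dpp. At 20dpp the control level was 18.6 times the knockout level (16.6 to 21.0), on 4857 and 299 counts. The 20dpp control therefore stood apart from the other 5 libraries, and the 20dpp knockout lay within the range of the 4 earlier ones. IAPLTR3-int, its internal sequence, measured 195 and 400.5 CPM at 16.5dpc, 166 and 171 at 10dpp, and 4085 and 1647 at 20dpp. Here both 20dpp libraries exceeded all earlier ones, and the control was 2.48-fold higher (2.44 to 2.53). IAPEY3_LTR had a log2 ratio of -0.87 (-1.0 to -0.74) and IAPEY2_LTR of -0.38 (-0.53 to -0.22).

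The remaining IAP entries were moderately higher in the knockout library. IAPEy-int measured 392 CPM (control) and 726 CPM (knockout) at 20dpp (log2 ratio 0.89, 0.83 to 0.95), against -0.29 at 10dpp and 0.37 (0.09 to 0.65) at 16.5dpc. IAPEY3-int measured 3733 and 5786 CPM (0.63, 0.61 to 0.65). IAPLTR4_I (0.74), IAPLTR4 (0.58), IAP-d-int (0.54) and IAPEY_LTR (0.32) had intervals above 0 as well. Of the 16 IAP entries 2 were higher and 2 lower by 2-fold or more (12.5% each, against 2.02% and 5.93% over all families). Intervals lay above 0 for 11 entries and below 0 for 4, against 40.8% and 35.3% over all families. No IAP entry turned sign under any scaling, whereas 175 of all 742 families did. The median log2 ratio was 0.43 and the standard deviation over entries 1.43, against 0.61 over all families.

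MMERVK10C, another ERVK group, was higher in both its internal sequence and its LTR. MMERVK10C-int measured 1554 (control) and 2378 CPM (knockout) at 16.5dpc, 1743 and 3127 at 10dpp, and 6522 and 17720 at 20dpp (20dpp ratio 2.72, 2.69 to 2.74). Its LTR entry RLTR10C measured 599 and 664 CPM at 16.5dpc, 505 and 602 at 10dpp, and 569 and 1532 at 20dpp (2.69, 2.61 to 2.78). The internal entry was also higher in the 20dpp control than in all 4 earlier libraries, while for RLTR10C the 20dpp control lay within their range. The other RLTR10 entries had log2 ratios of 0.36 (RLTR10B2), 0.26 (RLTR10-int), 0.25 (RLTR10B), 0.19 (RLTR10A), 0.06 (RLTR10), -0.47 (RLTR10D) and -0.57 (RLTR10E). For RLTR10 the interval held 0, and its value turned to -0.13 when scaled on total counts. The list of 9 had a median of 0.25. By 2-fold or more 2 entries were higher (22.2%, against 2.02% over all families) and 0 lower (against 5.93%).

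The early transposon group ETn and its coding relative MusD stayed within 2-fold in all 5 entries, as did 683 of all 742 families. ETnERV3-int measured 3110 CPM (control) and 4014 CPM (knockout) at 20dpp (log2 ratio 0.37, 0.35 to 0.39), against 422 and 611 CPM at 10dpp and 454 and 703 CPM at 16.5dpc. ETnERV2-int measured 4551 and 4685 CPM (0.04, 0.02 to 0.06), a sign that turned to -0.14 when scaled on total counts. ETnERV-int (-0.46, -0.53 to -0.39), MMETn-int (-0.24, -0.28 to -0.21) and the LTR RLTRETN_Mm (-0.21, -0.27 to -0.16) lay below 0. The median of the list was -0.21.

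Mouse ERV1 entries, gammaretrovirus-like elements, spread in both directions. MMVL30-int, from the noncoding VL30 retrotransposons, measured 2517 (control) and 4302 CPM (knockout) at 16.5dpc, 4198 and 6139 at 10dpp, and 7875 and 15921 at 20dpp (20dpp ratio 2.02, 2.0 to 2.04). Its LTR RLTR6_Mm measured 2079 and 3601 CPM at 20dpp (1.73, 1.70 to 1.76). MMERGLN-int, an element of the GLN type, measured 964 and 1814 CPM (1.88, 1.83 to 1.93). MuLV-int, from murine leukaemia virus sequences, and its LTR RLTR4_Mm had similar ratios of 1.44 (1.40 to 1.47) and 1.45 (1.41 to 1.49). In the other direction RMER21B measured 807 CPM (control) and 203 CPM (knockout), 3.98-fold higher in the control (3.79 to 4.19), and MuRRS-int was 2.31-fold higher in the control (2.21 to 2.42). Of the 32 entries 20 had intervals below 0 and 9 above, against 35.3% below and 40.8% above over all families. By 2-fold or more 1 was higher (3.12%, against 2.02%) and 2 were lower (6.25%, against 5.93%). Their median log2 ratio was -0.25, whereas their summed counts gave a ratio of 1.31 (1.30 to 1.31). MERVL-int, a class III ERV known from early embryos, had a log2 ratio of 0.20 (0.17 to 0.23), and its LTR MT2_Mm one of 0.07 (0.02 to 0.11) that turned to -0.12 when scaled on total counts. The 7 entries of MERVL and MT2 ranged from -0.22 (MT2C_Mm) to 0.20, with 0 past 2-fold (683 of all 742 families were within 2-fold).

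Internal sequence and LTR of an element did not always stand alike. Over 21 pairs of an internal entry and an LTR known to flank it, the internal log2 ratio was the higher in 15 and the lower in 6, with a median difference of 0.22, and 5 pairs differed by at least 2-fold. The pairs are not independent, since IAPEz-int and RLTRETN_Mm each enter 3 of them. MMERVK10C-int and RLTR10C differed by 0.01 on the log2 scale, and MuLV-int and RLTR4_Mm by -0.01. IAPLTR3-int lay 2.90 above IAPLTR3, IAPEY3-int 1.5 above IAPEY3_LTR, and IAPEz-int 1.25 above IAPLTR1a_Mm and 1.55 above IAPLTR2_Mm. MuRRS-int lay the other way, with a difference of -1.31 to RLTR5_Mm, whose interval held 0 (log2 ratio 0.10, -0.12 to 0.32, on 311 and 382 counts). When the 51 pairs that share a name were added, the median difference over 72 pairs was 0.13, with the internal entry higher in 44 and lower in 28.

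**Figure D3:**
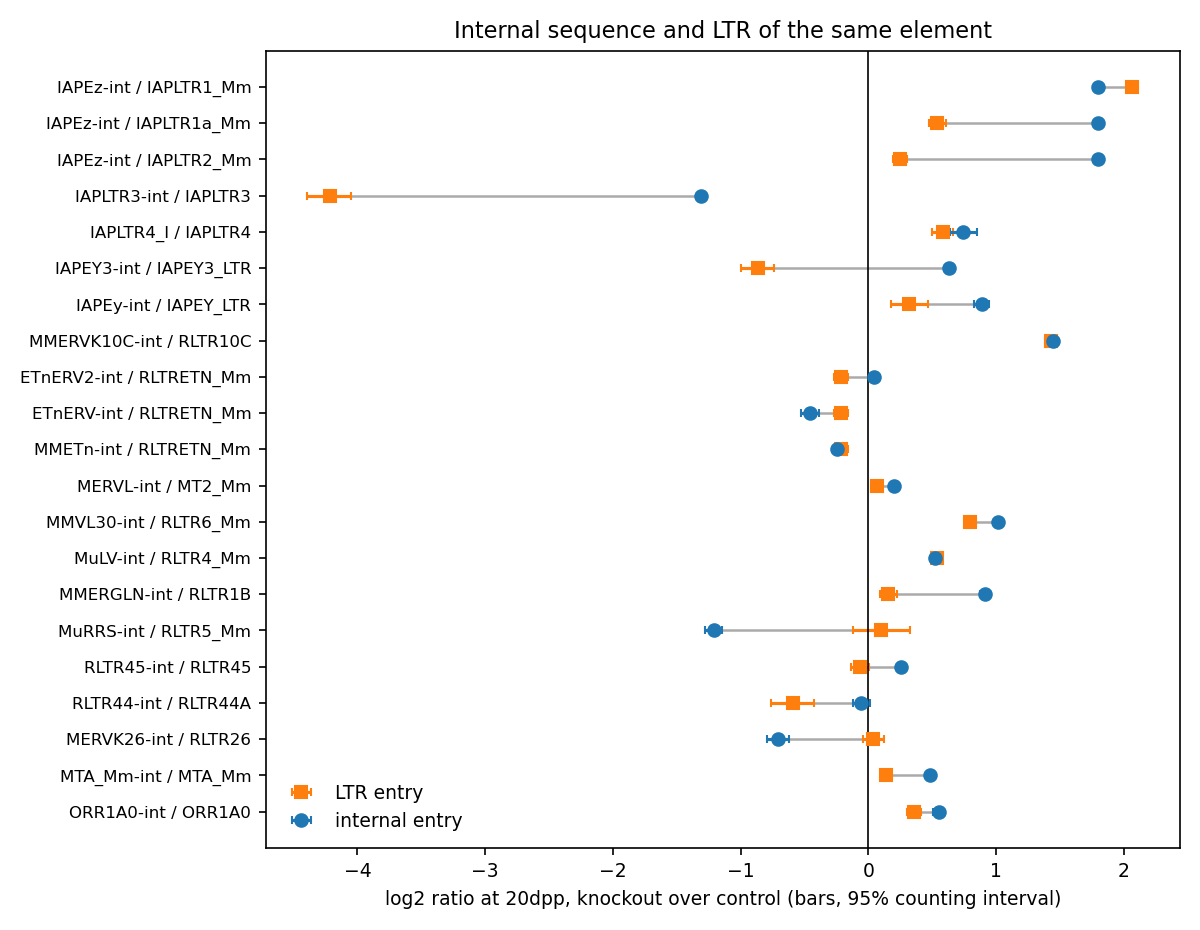
Log2 ratio of knockout over control at 20dpp (horizontal axis) for 21 pairs of an internal entry (blue circles) and an LTR entry (orange squares); bars are 95% counting intervals and grey lines join a pair. MMERVK10C-int and RLTR10C coincide, while IAPLTR3-int (-1.31) and IAPLTR3 (-4.21) are far apart.

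In most of the families that were lower by 2-fold or more, the 20dpp control library carried a higher level than any earlier library. That held in 41 of the 44 (93.2%), against 257 of all 742 families (34.6%). In the knockout library at 20dpp 11 of the 44 were above the earlier range, 13 within it and 20 below it. Over all 742 families the knockout library was above it in 257, within it in 253 and below it in 232. Since the 44 were chosen by a high control over the knockout, these counts are a description. Of the 15 higher families, 13 (86.7%) had a 20dpp knockout level above all earlier libraries, against 34.6% of all families. Their control was above the earlier range in 3 (20.0%, against 34.6%), within it in 6 and below it in 6. Over all 742 families the control was within it in 267 and below it in 218. The 15 were chosen by a high knockout over the control, so these counts too are only a description. LTR68, an LTR entry, measured 8.08 CPM (control) and 17.1 CPM (knockout) at 16.5dpc, 6.03 and 8.93 at 10dpp, and 201.5 and 12.4 at 20dpp, 16.2-fold higher in the 20dpp control (13.5 to 19.5). MER52-int, an ERV1 internal sequence, measured 185 and 16.5 CPM at 20dpp (11.2-fold, 9.57 to 13.2), with 15.1 to 30.8 in the 4 earlier libraries. MER90a measured 373 and 71.7 CPM (5.20-fold, 4.80 to 5.65), with 73.3 to 98.5 earlier. In these 3 families the knockout library at 20dpp lay inside or slightly below the earlier range and the control far above it. LTR28 was 8.68-fold higher in the control (5.20 to 16.5) on only 117 and 15 counts, and MLT1H2-int 5.15-fold higher (3.45 to 8.30) on 124 and 27.2 counts.

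More abundant rodent entries that name patterns placed in the other ERVK list gave the same layout of levels. Their class was not checked against a repeat annotation. RodERV21-int measured 571 (control) and 622 CPM (knockout) at 16.5dpc, 482 and 377 at 10dpp, and 1490 and 329 at 20dpp, 4.54-fold higher in the 20dpp control (4.37 to 4.71). RLTR13D6 measured 945 and 240.3 CPM at 20dpp (3.93-fold, 3.76 to 4.11), with 254 to 307 earlier. MurERV4_19-int measured 1212 and 393 CPM (3.08-fold, 2.97 to 3.20), with 241 to 300 earlier, so here the knockout library also exceeded the earlier ones. RLTR9A2 (4.71-fold, 4.15 to 5.36) and RLTR9F (3.60-fold, 3.25 to 4.0) belong to a stem of 8 RLTR9 entries that ranged from -2.24 to 0.83 in log2 ratio, RLTR9B being the highest. The 15 RLTR13 entries ranged from -1.97 to 0.40, with a median of -0.15, and 2 of them were lower by 2-fold or more. Over the 121 other ERVK entries the median was -0.09, and 61 intervals lay below 0 and 38 above (35.3% and 40.8% over all families). By 2-fold or more 8 entries were lower (6.61%, close to the 5.93% over all families) and 0 higher (against 2.02%). RNERVK23-int was the highest of them, with 4293 CPM (control) and 7912 CPM (knockout) at 20dpp (1.84-fold, 1.82 to 1.87).

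Some DNA transposons and further old families completed the low end. Over the 142 DNA transposons 75 intervals lay above 0 and 27 below, against 40.8% and 35.3% over all families. Their median log2 ratio was 0.16, with a sign that depended on the scaling. Ricksha_c, from a group of DNA transposons, measured 136 and 29.8 CPM at 20dpp (4.57-fold higher in the control, 4.03 to 5.21), with 31.6 to 42.0 earlier. Kanga11a (3.48-fold, 2.96 to 4.12), LTR85a (4.31-fold, 3.45 to 5.48), MER68-int (3.67-fold, 3.07 to 4.44) and MER110A (3.14-fold, 2.74 to 3.61) were also among the 20 lowest. FordPrefect, a hAT-type DNA transposon, did not share the layout. It measured 645 CPM (control) and 1884 CPM (knockout) at 16.5dpc, 879.9 and 543 at 10dpp, and 309 and 86.1 at 20dpp, so both 20dpp libraries were below all earlier ones and the control was 3.59-fold higher (3.32 to 3.88).

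**Figure D4:**
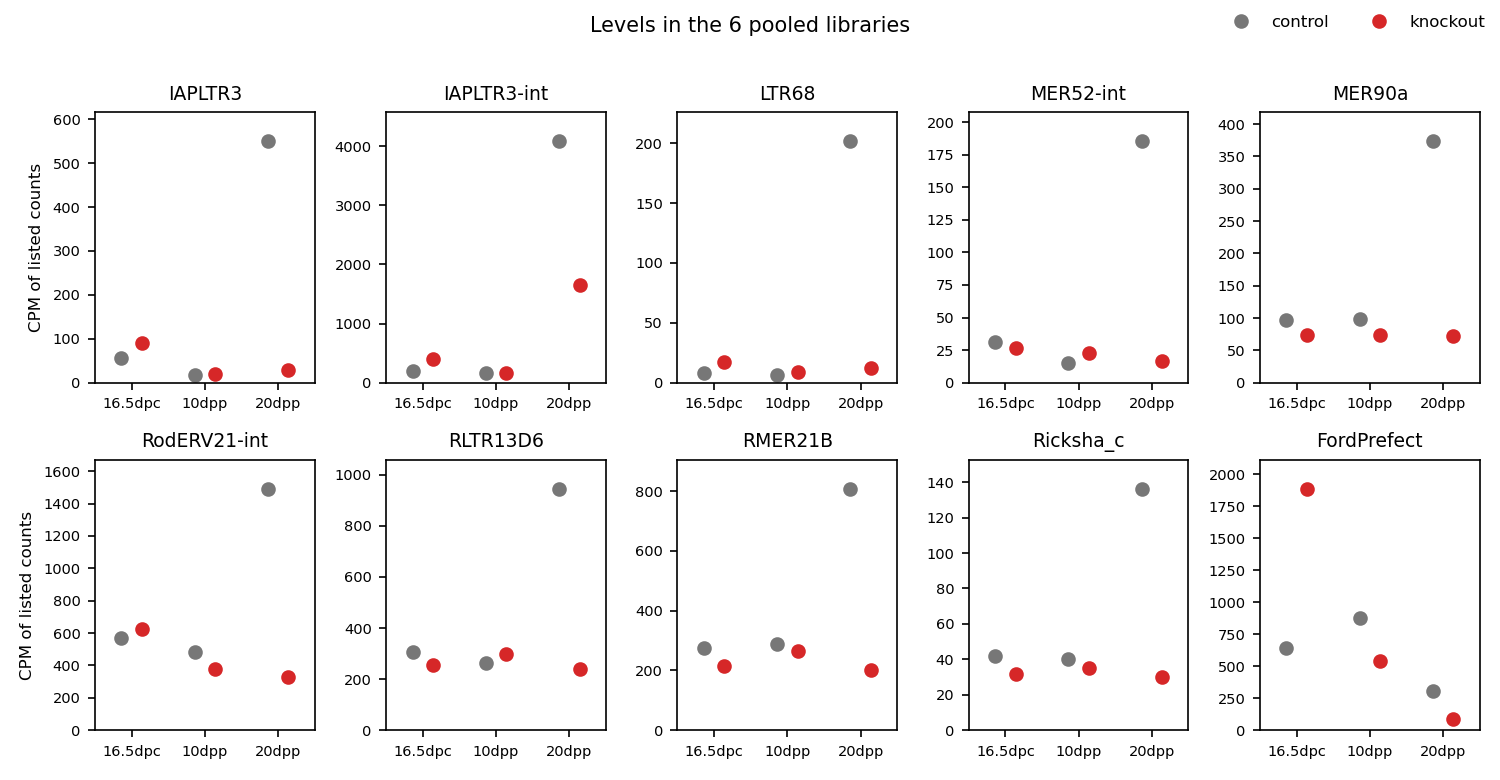
Level in CPM (vertical axis, from 0, own scale in each panel) of 10 families that were lower in the 20dpp knockout library, in the 6 pooled libraries by age; grey points are controls (heterozygous at 16.5dpc and 10dpp, wild type at 20dpp) and red points knockouts. IAPLTR3, LTR68, MER52-int, MER90a, RodERV21-int, RLTR13D6, RMER21B and Ricksha_c are highest in the 20dpp control, IAPLTR3-int is raised in both 20dpp libraries, and FordPrefect is lowest at 20dpp.

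The low families were distributed over several lists. The 112 other LTR and MER entries held 14 of the 44 families at least 2-fold lower (12.5% of the list, against 5.93% over all families) and 0 of the 15 higher ones, with a median of -0.03. The 45 other ERVL entries held 5 lower (11.1%) and 0 higher. The 142 DNA transposons held 7 lower (4.93%) and 4 higher (2.82%), and the 93 MaLR entries 4 lower (4.3%) and 3 higher (3.23%). Over all families 5.93% were lower and 2.02% higher, so the lower shares of DNA transposons and MaLRs were slightly under that over all families. MaLRs, the nonautonomous relatives of ERVL, had a median of -0.06, with 48 intervals below 0 and 30 above (35.3% and 40.8% over all families). MTA_Mm-int and MTA_Mm, from the youngest mouse MaLR type, had log2 ratios of 0.48 (0.45 to 0.50) and 0.14 (0.12 to 0.16), the second of which turned to -0.044 when scaled on total counts. MLT1E3 measured 310.5 and 649.8 CPM at 20dpp (2.09-fold, 2.0 to 2.19) and 205 and 444 CPM at 16.5dpc, but 220 and 224 CPM at 10dpp (log2 ratio 0.03, -0.17 to 0.22). MLT1J-int had a control level 2.52 times its knockout level (2.26 to 2.82). The other ERVL list had a median of -0.05, and HERVL40-int was its highest entry at 1.80-fold (1.63 to 2.0). Among DNA transposons MER47A was highest among those with at least 200 counts, with 49.0 and 111 CPM at 20dpp (2.26-fold, 2.02 to 2.53), against 43.6 to 56.3 CPM in the earlier libraries.

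SINEs supplied a large part of the listed counts and lay close to the control. The 33 rodent SINE entries held 46.1% of the control counts and 44.7% of the knockout counts. Their log2 ratios ranged from -0.37 (AluG_3) to 0.38 (B2_Mm1a), with a median of 0.13 that turned to -0.057 when scaled on total counts. Between scalings 24 of the 33 changed sign, against 175 of all 742 families. B3, the entry with the most counts, measured 47866 and 52609 CPM at 20dpp (1.10-fold, 1.09 to 1.10), which becomes a log2 ratio of -0.048 on total counts. B2_Mm2 kept its direction under each scaling, at 26316 and 30180 CPM (1.15-fold, 1.14 to 1.15). B1_Mm, a young B1 type, had a log2 ratio of 0.18 (0.16 to 0.19), or -0.0088 on total counts. The MIR list of 8, of which 5 carry the MIR name, had a median of 0.22. All 8 of its intervals lay above 0 (40.8% over all families), and LFSINE_Vert was its highest entry at 0.65 (0.55 to 0.75). LINE-2 and CR1 entries had a median of 0.14 over 9 that became -0.047 on total counts. That of the 142 DNA transposons was 0.16 and became -0.029. No entry of the SINE, MIR or LINE-2 and CR1 lists was past 2-fold, while over all families 2.02% were higher and 5.93% lower by 2-fold or more.

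**Figure D5:**
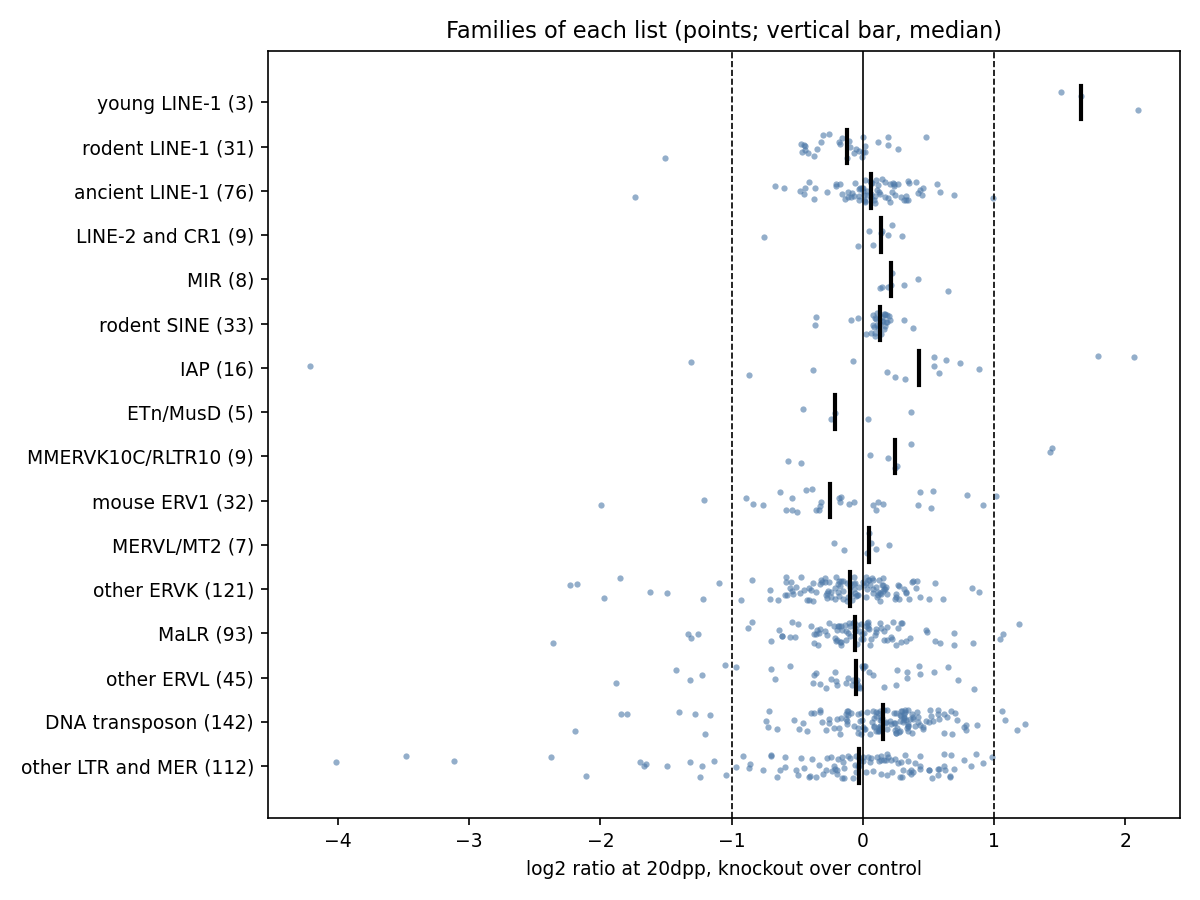
Log2 ratio of knockout over control at 20dpp (horizontal axis) for the 742 families in 16 lists (rows, with the number of entries); each point is a family, black bars are medians and dashed lines mark 2-fold. The 3 young LINE-1 subfamilies are all beyond 2-fold, and IAP spans -4.21 to 2.07. Rodent SINE entries span -0.37 to 0.38 and the MIR list 0.13 to 0.65.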

How the data were processed

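The deposited files give an estimated count for each repeat family, 1 value per family and library, which need not be whole; between 7.91% and 13.5% of values were whole within 1e-06. Per the submitters' processing notes reads were aligned with Bowtie to mm9. Versions, repeat annotation, weighting of shared reads and strand setting were not given in the sources used here. Each family sums over its genomic copies, so reads of copies inside gene transcripts are included, and no coordinate or sequence was assigned.

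TMM factors were computed over all 6 libraries with edgeR 4.0.16 (R 4.3.3), 0.900 for the 20dpp knockout and 1.02 for its control. The log2 ratio used 0.5 added counts and a minimum of 50 counts in both 20dpp libraries together. The 95% interval is the exact Clopper-Pearson one for rounded counts, conditional on their sum. Its code was run on simulated independent Poisson counts, the model that the interval assumes. Those counts lack the weighted, shared reads of the real data, so that run cannot show how well the intervals cover here. Shares carry exact binomial intervals. No test was made, as each side is 1 library. A ratio of 2-fold describes size.

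Families were put into 16 lists by name pattern, 13 entries being placed after the names were seen, and 1 entry belongs to no list. Named families are the 10 with the highest lower bound and the 20 with the lowest upper bound, the 10 most abundant, all members of 4 short lists, the pairs, and the extremes of each other list with at least 200 counts; others were named after their values were seen. Members and lists were chosen with earlier results of these data known. Alternatives were other scalings (total counts, TMM on the 20dpp libraries alone, size factors from DESeq2 1.42.0, upper quartile, ancient repeats centred on 0), 5 added counts, a minimum of 200 counts or none, and the whole interval past 2-fold.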

Additional observations from a re-analysis of the deposited data

Results flagged for a closer look

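In 2 families the knockout library was at least 2-fold lower than its control at 20dpp and at least 2-fold higher at 16.5dpc, with counting intervals that exclude 0 at both ages. FordPrefect had a log2 ratio of -1.84 at 20dpp (-1.96 to -1.73) and 1.55 at 16.5dpc (1.46 to 1.64). IAPLTR3-int had a log2 ratio of -1.31 at 20dpp (-1.34 to -1.28) and 1.03 at 16.5dpc (0.85 to 1.22), so its 16.5dpc interval reaches under 2-fold. The 16.5dpc ratios were computed with TMM over all 6 libraries only, and the flag was not checked there under other scalings. Each age is 1 library per genotype, the 16.5dpc control is heterozygous and the 20dpp control wild type, and the difference between the ages was not tested.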

How the results depend on the processing

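Every scaling moves all log2 ratios by the same amount: by -0.18 on total counts, -0.16 with the ancient repeats (159 families) centred on 0, -0.02 with TMM on the 20dpp libraries alone, 0.01 with DESeq2 size factors and -0.0005 with upper quartile. The 15 higher families became 9 on total counts and 23 with no minimum, and between 10 and 16 otherwise. The 44 lower families ranged from 36, with the whole interval past 2-fold, to 56 on total counts. Lower families were 74.6% of those past 2-fold, 86.2% on total counts and 84.6% with ancient repeats centred. Over all scalings 175 of the 742 families changed sign, some of them near 0 with DESeq2 size factors. For the list medians and the named families whose interval excluded 0, the direction turned under 2 scalings, and the values on total counts and with ancient repeats centred follow in that order. List medians became -0.12 and -0.10 for ancient LINE-1, -0.047 and -0.024 for LINE-2 and CR1, -0.057 and -0.033 for rodent SINE, -0.13 and -0.11 for MERVL and MT2, -0.029 and -0.0053 for DNA transposons, and -0.16 and -0.14 for all families. Named families became -0.048 and -0.024 (B3), -0.070 and -0.047 (ID_B1), -0.089 and -0.066 (RSINE1), -0.090 and -0.066 (PB1D10), -0.057 and -0.033 (B1_Mus1), -0.089 and -0.066 (B4A), -0.041 and -0.017 (B3A), -0.038 and -0.015 (B1_Mus2), -0.14 and -0.12 (ETnERV2-int), -0.12 and -0.10 (MT2_Mm), -0.029 and -0.0053 (RLTR1B), -0.044 and -0.021 (MTA_Mm) and -0.050 and -0.027 (MIR), and B1_Mm became -0.0088 on total counts. The shift follows from the construction of the scaling. No paired analysis was possible because each group is 1 library, and for the same reason no replicate could be left out.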
